A study of Homo sapiens with 6 samples.

Results

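The ID genes and the genes of bone morphogenetic protein (BMP) signalling were examined in U87-MG cells, an established human glioblastoma cell line, with and without a lentiviral knockdown of CHRM3, the M3 muscarinic acetylcholine receptor. The 10 genes were taken from the table by name, by a rule that uses no measured value, although with earlier results of these data known, and comprised ID1, ID2, ID3 and ID4, the inhibitory SMAD6 and SMAD7, BMP1 and BMP4, and the secreted antagonists GREM1 and NOG, of 61731 genes and loci in the table. The 6 libraries of total RNA were 3 of cells with the negative control (NC, given in the labels as the genotype Normal control) and 3 of cells with CHRM3 knockdown (KD, given as CHRM Knockdown). The knockdown sequence in these cells is not stated, and whether separate cultures gave the 3 libraries of each group is not stated either, so p-values measure the spread between these libraries, which may be technical. Levels were given by the authors in TPM, a share of each library per transcript length, which keeps no read depth, so the depth behind each value is unknown.

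CHRM3 (ENSG00000133019) was 0.02, 0.09 and 0.13 TPM in NC libraries 1, 2 and 3, and 0.13, 0.01 and 0.02 TPM in KD libraries 1, 2 and 3. The groups overlapped at levels near the rounding step of the table, and the difference did not pass an exact two-sided permutation test (p = 0.80, with 0.10 the lowest p possible for 3 libraries in each group). The knockdown was therefore not detectable in these libraries, and directions are given for libraries labelled KD relative to libraries labelled NC. In its own assays of relative CHRM3 levels, the paper reports an efficient knockdown in U87-MG cells. CDKN2A and CDKN2B, which are known to be lost in U87-MG cells, were listed at 0 in all 6 libraries, and MTAP beside them was at most 0.01 TPM. Of the glial and glioblastoma markers, VIM was the most abundant at 6528 to 7451 TPM, GFAP was between 0.87 and 1.46 TPM, SOX2 was at most 0.09 TPM and AQP4 was listed at 0 throughout. Of these 10 markers 5 were tested, with VIM, NES and CHI3L1 higher and CD44 lower, and their sum was 7140 to 7320 TPM in NC and 7776 to 7965 TPM in KD. PTPRC, the common leukocyte antigen, was at most 0.12 TPM, although CD68 of the leukocyte list was 251.0 TPM in NC and 172.7 TPM in KD. Of 10 leukocyte markers 2 were tested, with 0 higher and 1 lower, and their sum was 251.9 to 256.2 TPM in NC and 173.3 to 181.4 TPM in KD. Of 8 endothelial markers only KDR was tested, which was lower (3.37 TPM in NC and 1.40 TPM in KD, adjusted p by limma = 0.000857), CLDN5 was listed at 0 and PECAM1 was at most 0.05 TPM, and their sum was 3.87 to 4.22 TPM in NC and 1.92 to 2.40 TPM in KD. Mitochondrial transcripts held 5.32% to 5.47% of the TPM in NC and 4.41% to 4.87% in KD.

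BMPs are secreted ligands that bring type I and type II receptor kinases together, and the type I receptor then phosphorylates SMAD1, SMAD5 and SMAD9, which enter the nucleus with SMAD4. The ID genes are classic direct targets of these SMADs. ID proteins hold a helix-loop-helix domain without the basic region that binds DNA, and by pairing with E proteins such as TCF3 they keep basic helix-loop-helix factors off their sites. They are known for opposing differentiation in the nervous system and for their expression in glioblastoma, while SMAD6 and SMAD7 close the loop as inhibitors induced by the pathway itself.

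All 4 ID genes were higher in the KD libraries, the antagonist GREM1 fell to 0.55 times its control level and SMAD7 was also lower, while SMAD6 and BMP1 did not pass the test and BMP4 and NOG were hardly or not expressed. Differences were tested with limma on log2(TPM + 1) over the 13722 genes averaging at least 1 TPM, which included 8 of the 10 genes, and passed at a Benjamini-Hochberg adjusted p under 0.05. Of these 8 genes, 4 were higher, 2 were lower and 2 did not pass. Over all genes tested, 12.1% were higher and 24.0% were lower at the same threshold. After median-of-ratios scaling the calls over all genes were 2306 higher and 2245 lower, against 1660 higher and 3295 lower with TPM as deposited, and after quantile normalization they were 2233 and 2229. The 4 ID genes also passed as higher, and GREM1 and SMAD7 as lower, after either scaling. Only ID2 also reached a log2 fold change of 1, as 1.87% of the tested genes did in either direction. The median log2 fold change was 0.24 over the 8 genes and -0.06 over all genes tested.

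ID2 (ENSG00000115738) had the largest change of the ID genes. It was 26.42, 23.19 and 26.91 TPM in NC libraries 1, 2 and 3, and 66.79, 61.49 and 73.74 TPM in KD libraries 1, 2 and 3. Every KD library was above every NC library, by more than the spread within either group. The mean rose, from 25.5 ± 2.02 in NC to 67.3 ± 6.14 TPM (SD, n = 3 each), and the log2 fold change was 1.37 ± 0.0823 (SE, adjusted p by limma = 8.32e-05). Leaving out each replicate in turn gave log2 fold changes from 1.30 to 1.43. The gene lies on chromosome 2 (8678845 to 8684453, plus strand, GRCh38, GENCODE 29) and overlaps the antisense gene ID2-AS1, which was between 0.07 and 0.18 TPM in NC and between 0.43 and 1.32 TPM in KD. Whether counting took account of strand is not stated, so reads of the pair may not be told apart.

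ID1 (ENSG00000125968), the ID gene most often used as a readout of BMP signalling, was 103.1, 93.96 and 98.43 TPM in the NC libraries and 132.9, 148.0 and 180.1 TPM in the KD libraries. The groups did not overlap, and the KD libraries were spread more widely, with KD library 3 the highest. The mean rose, from 98.5 ± 4.58 in NC to 153.7 ± 24.1 TPM (SD, n = 3 each), and the log2 fold change was 0.63 ± 0.107 (SE, adjusted p by limma = 0.00516). Without KD replicate 3 the log2 fold change was 0.51 and still passed. ID1 is on chromosome 20 (31605283 to 31606515, plus strand).

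ID3 (ENSG00000117318) was the most abundant ID gene in the controls, at 134.7, 144.2 and 145.0 TPM, and was 163.9, 157.4 and 162.6 TPM in the KD libraries. The groups did not overlap, but the ratio of the means, 1.14, was the smallest of the 4 ID genes, from 141.3 ± 5.72 to 161.3 ± 3.44 TPM (SD, n = 3 each). The log2 fold change was 0.19 ± 0.0352 (SE, adjusted p by limma = 0.00703). It was between 0.16 and 0.21 when each replicate was left out in turn. ID3 lies on chromosome 1 (23557918 to 23559794, minus strand).

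ID4 (ENSG00000172201), known for its part in neural progenitors, was the least expressed of the 4 and near the limit for testing. It was 1.13, 0.94 and 0.92 TPM in the NC libraries and 1.73, 1.88 and 1.97 TPM in the KD libraries. These groups did not overlap, and the log2 fold change was 0.52 ± 0.118 (SE, adjusted p by limma = 0.0157). The pseudocount of 1 shrinks the change of so low a gene, and the ratio of the mean TPM was 1.87. The call was lost without KD replicate 2 (log2 fold change 0.51, adjusted p by limma = 0.0502), without KD replicate 3 (0.49, adjusted p = 0.0519) and with a term for the replicate block (adjusted p = 0.0589). ID4 is on chromosome 6 (19837386 to 19840684, plus strand) and overlaps an antisense gene, AL022068.1. This gene was 0.58, 0.29 and 0.51 TPM in NC and 1.20, 0.53 and 0.74 TPM in KD, lower than ID4 in each library. With the use of strand in counting not stated, reads of this pair may not be told apart either.

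Added together, the 4 ID genes were 265.4, 262.2 and 271.2 TPM in the NC libraries and 365.3, 368.8 and 418.5 TPM in the KD libraries. The KD sum was 1.44 times the NC sum, with no overlap. In both groups the order by mean level was ID3, ID1, ID2 and ID4, with ID1 below ID3 in every NC library. In KD the mean of ID1, 153.7 TPM, and that of ID3, 161.3 TPM, lay within the spread of ID1, whose highest library exceeded every library of ID3. The part of ID2 in the sum was 9.96%, 8.84% and 9.92% in NC and 18.3%, 16.7% and 17.6% in KD. These sums were formed after the values had been seen and are given with no test.

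**Figure D1:**
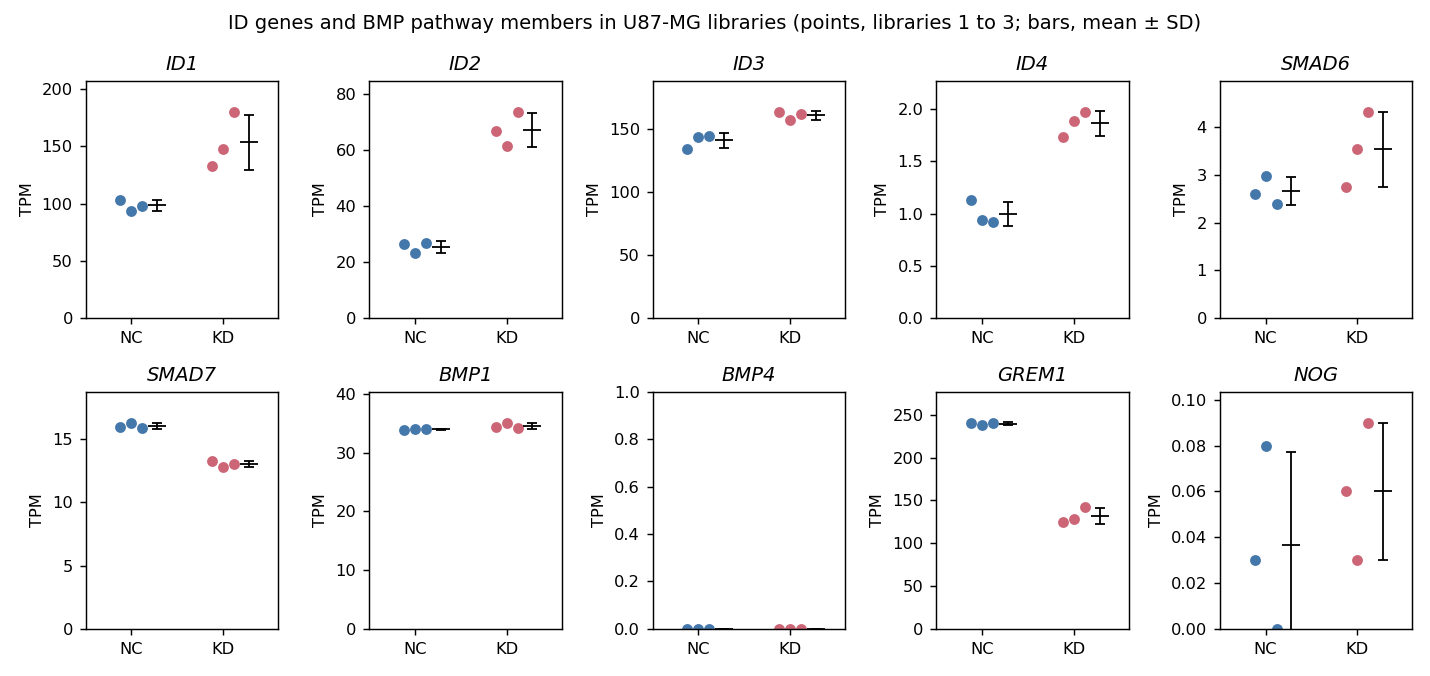
TPM (vertical axes, linear from 0, scaled by gene) of the 10 genes in the 3 NC and 3 KD libraries, with each point a library and the bar beside it the mean ± SD. The KD libraries of ID1, ID2, ID3, ID4 and, narrowly, BMP1 lie above all NC libraries. Those of SMAD7 and GREM1 lie below, SMAD6 and NOG overlap, and BMP4 is listed at 0 in all 6 libraries.

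The sequence just before the start of these genes is shown because the ID genes are known targets of SMADs. These factors bind short GC-rich elements and SMAD boxes. Whether SMADs acted on these genes here was not tested. RefSeq windows of the 250 bases before the annotated start (GRCh38.p14, plus strand) were searched on both strands for GGCGCC and GCCGNCGC, the GC-rich elements of SMAD1 and SMAD5, for the palindromic SMAD box GTCTAGAC, and for the E-box CANNTG, to which the partners of ID proteins bind. Capitals mark these motifs, and each window is shown up to the first exon of the gene in GENCODE 29 or to the end of a motif that crosses into it. The window of ID2 begins inside the longer GENCODE gene. The windows are chr20:31605039-31605282 for ID1, chr2:8681806-8681856 for ID2, chr6:19837120-19837369 for ID4, chr15:66701986-66702231 for SMAD6 and chr15:32717754-32717973 for GREM1.
ID1: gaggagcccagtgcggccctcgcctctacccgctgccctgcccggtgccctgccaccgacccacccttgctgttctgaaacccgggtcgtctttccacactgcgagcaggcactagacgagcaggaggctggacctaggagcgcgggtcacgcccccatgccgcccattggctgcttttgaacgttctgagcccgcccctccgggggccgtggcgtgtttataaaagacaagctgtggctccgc
ID2: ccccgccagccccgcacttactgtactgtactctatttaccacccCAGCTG
ID4: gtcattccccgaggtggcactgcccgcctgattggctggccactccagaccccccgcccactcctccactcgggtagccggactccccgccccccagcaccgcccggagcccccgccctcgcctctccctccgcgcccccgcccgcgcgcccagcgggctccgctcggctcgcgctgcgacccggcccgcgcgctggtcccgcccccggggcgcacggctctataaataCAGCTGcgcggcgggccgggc
SMAD6: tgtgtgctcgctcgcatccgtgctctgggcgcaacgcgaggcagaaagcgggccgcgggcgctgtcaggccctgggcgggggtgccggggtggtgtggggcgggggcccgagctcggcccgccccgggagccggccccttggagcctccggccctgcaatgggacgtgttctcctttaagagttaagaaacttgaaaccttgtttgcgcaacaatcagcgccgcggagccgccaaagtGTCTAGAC
GREM1: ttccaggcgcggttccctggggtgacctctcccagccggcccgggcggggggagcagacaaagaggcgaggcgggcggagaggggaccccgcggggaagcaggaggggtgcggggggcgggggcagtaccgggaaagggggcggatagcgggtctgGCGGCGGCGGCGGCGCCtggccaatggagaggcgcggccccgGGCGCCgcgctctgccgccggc

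SMAD6 was the 1 gene of those with a window whose 250 bases held GTCTAGAC, which began 12 bases before the start and occurred in 0.182% of the 35116 RefSeq windows of this length. The first of the 2 GREM1 windows held GGCGCC at 2 positions, 83 and 52 bases before its start, as 16.4% of all windows did at least once. It also held GCCGNCGC at 3 positions between 94 and 88 bases before the start, which overlap each other and the first GGCGCC (12.9% of all windows). None of the windows of ID1, ID2, ID3 and ID4 held the GC-rich elements or the palindromic box. ID2 and ID4 each held the E-box, 205 and 21 bases before the start, as did 61.8% of all windows. SMAD7 held the E-box in 2 of its 3 windows, and BMP4, also with 3, held GGCGCC in 1 and the E-box in 1. A match is a description of these letters, and SMAD elements farther from the start were not searched. The window of ID3 held none of the 4 motifs and lies within its first GENCODE exon, so it is not shown. For BMP1 and NOG no window was used.

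Of the inhibitory SMADs, SMAD7 was lower and SMAD6 did not pass the test. SMAD7 (ENSG00000101665), which blocks both BMP and TGF-beta receptors, was 15.93, 16.28 and 15.89 TPM in the NC libraries and 13.27, 12.77 and 13.01 TPM in the KD libraries. The groups did not overlap and each was tightly spread, and the log2 fold change was -0.28 ± 0.0403 (SE, adjusted p by limma = 0.00252). SMAD6 (ENSG00000137834), the inhibitor more closely tied to BMP signalling, was 2.60, 2.98 and 2.39 TPM in NC and 2.74, 3.54 and 4.31 TPM in KD. KD library 1 lay within the range of the controls, and the log2 fold change of 0.30 (95% confidence interval -0.06 to 0.65) did not pass (adjusted p by limma = 0.166). SMAD7 lies on chromosome 18 (48919853 to 48952052, minus strand), and SMAD6 on chromosome 15 (66702228 to 66782848, plus strand).

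BMP1 and BMP4 share a name but not a function. BMP4 (ENSG00000125378, chromosome 14 from 53949736 to 53958761), a classic ligand that drives ID genes and the differentiation of glioblastoma stem cells, was listed at 0 TPM in all 6 libraries. BMP1 (ENSG00000168487, chromosome 8 from 22164736 to 22212326) is no ligand but a tolloid proteinase that cleaves procollagens and the BMP antagonist chordin. It was 33.84, 33.98 and 33.94 TPM in NC and 34.34, 35.08 and 34.10 TPM in KD. Although every KD library was above every NC library, the log2 fold change was 0.02 (95% confidence interval -0.05 to 0.10) and did not pass (adjusted p by limma = 0.57). After median-of-ratios scaling it was 0.09 and after quantile normalization 0.10, with adjusted p by limma of 0.049 and 0.045. Of the 8 tested genes, 5 had KD libraries entirely above the controls, counting BMP1, and 2 entirely below, where 17.4% and 32.8% of all genes tested did so.

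GREM1 (ENSG00000166923) encodes gremlin, a secreted protein that binds BMP2, BMP4 and BMP7 and keeps them from their receptors. It was the most abundant of the 10 genes in the controls, at 240.6, 237.7 and 240.8 TPM, and was 124.4, 128.8 and 142.5 TPM in the KD libraries. All controls were above all KD libraries, and KD library 3 was the nearest to them. The mean fell, from 239.7 ± 1.73 in NC to 131.9 ± 9.48 TPM (SD, n = 3 each), and the log2 fold change was -0.86 ± 0.0496 (SE, adjusted p by limma = 7.08e-05). It was between -0.92 and -0.82 when each replicate was left out in turn. GREM1 lies on chromosome 15 (32717974 to 32745107, plus strand) and overlaps a non-coding gene on the other strand, AC090877.2, at 1.28 to 3.50 TPM.

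NOG (ENSG00000183691, chromosome 17 from 56593699 to 56595590) encodes noggin, another antagonist of BMP ligands. It was 0.03, 0.08 and 0 TPM in the NC libraries and 0.06, 0.03 and 0.09 TPM in the KD libraries. These values were too close to the rounding step of 0.01 TPM for a difference to be seen (exact two-sided permutation test, p = 0.50, smallest possible 0.10).

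**Figure D2:**
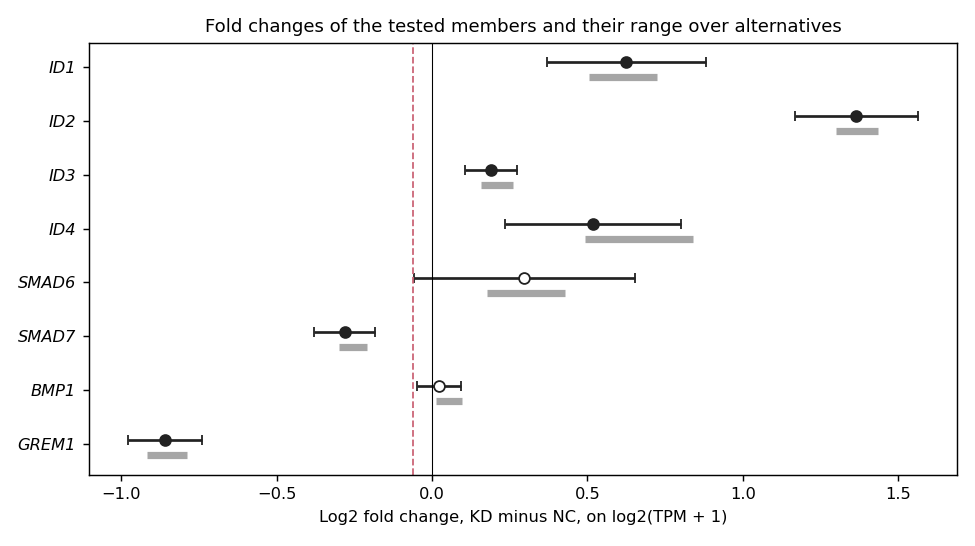
Log2 fold change (KD minus NC, horizontal axis, on log2(TPM + 1)) of the 8 tested genes, with points and bars for the estimate and its 95% confidence interval, filled points for an adjusted p under 0.05, and grey bars for the range over the alternative settings. The dashed line is the median of all tested genes at -0.06. The 4 ID genes lie to its right and SMAD7 and GREM1 to its left over every alternative, while the interval of SMAD6 reaches from -0.06 to 0.65.

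Of the other genes of the pathway and its neighbours, 103 were listed by role and 59 of them were tested. Of these, 16 were higher (27.1%), 12 were lower (20.3%) and 31 did not pass, beside 12.1% higher and 24.0% lower over all genes tested, and the median log2 fold change was -0.01 beside -0.06. These shares depend on the scaling. After median-of-ratios scaling 18 pathway genes were higher and 10 lower, beside 2306 higher and 2245 lower of 13719 genes tested. After quantile normalization they were 17 and 10, beside 2233 and 2229 of 13722. In the main fit, with the pseudocount of 1, none of the 59 reached a log2 fold change of 1, as 1.87% of all genes tested did. With a pseudocount of 0.1 BMP2 (-1.13), ATOH8 (1.11) and TGFB3 (1.05) reached it, and with 0.5 BMP2 (-1.05) and ATOH8 (1.04). ATOH8 also reached it after median-of-ratios scaling (1.03), after quantile normalization (1.025) and without NC replicate 3 (1.05). Genes named here outside the rule on level were chosen after their values had been seen, namely BMP2, BMP8A, BMPR1A, BMPR2, NEO1, SMAD1, SMAD5, KCP, CHRDL1, SKIL, ATOH8, DLX5, HEY1, MSX1, DLX2, GATA3, UNC5B, TWIST2, HES1, TGFB3, CDKN1B and ACVR1B, together with genes given as at or near 0.

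Few ligands of the BMP family were expressed. Of the 14 other BMP and GDF ligands, 3 reached the limit for testing and 5 were listed at 0 in all 6 libraries. GDF5, the most abundant, was 17.6 ± 0.197 TPM in NC and 16.1 ± 0.469 TPM in KD (SD, n = 3 each). Its groups did not overlap, but it did not pass (adjusted p by limma = 0.0504). BMP2, a potent ligand for the type I receptors BMPR1A and BMPR1B, was 6.95, 7.72 and 6.82 TPM in NC and 2.91, 3.42 and 3.31 TPM in KD. The groups did not overlap, with a log2 fold change of -0.95 (adjusted p by limma = 0.00034). The ligand and its antagonist GREM1 were thus both lower, and GREM1 was between 30.8 and 35.3 times as abundant as BMP2 in NC and between 37.7 and 43.1 times in KD.

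Of the 13 receptors and co-receptors, 9 were tested, of which 2 were higher, 1 was lower and 6 did not pass. ACVR1, a type I receptor also known as ALK2, rose from 21.0 ± 0.611 to 24.7 ± 1.27 TPM, and RGMB, a co-receptor, rose from 11.7 ± 0.287 to 14.8 ± 0.943 TPM (SD, n = 3 each). NEO1, which encodes the receptor neogenin that binds RGM proteins, fell from 4.76 to 3.31 TPM (adjusted p by limma = 0.0193), a call lost without NC replicate 3, KD replicate 1 or KD replicate 2. The signalling receptors BMPR1A and BMPR2 differed by log2 fold changes of -0.01 (95% confidence interval -0.17 to 0.15) and -0.03 (-0.20 to 0.14), and neither passed. ENG, the most abundant at 37.6 TPM in NC and 37.3 TPM in KD, did not pass either. The signs of these last 3 genes turned with median-of-ratios scaling.

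Of the SMADs that carry the signal, 3 of 4 were tested and none passed. SMAD1 was 8.27 and 9.14 TPM, SMAD5 was 10.2 and 11.5 TPM, and SMAD4, the partner shared with TGF-beta signalling, was 14.6 and 12.8 TPM in NC and KD. SMAD5 passed when KD replicate 3 was left out (log2 fold change 0.23, adjusted p by limma = 0.0261) and after median-of-ratios scaling (0.23, adjusted p = 0.038), and SMAD4 when KD replicate 2 was (-0.25, adjusted p = 0.0464).

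Of the 16 other secreted antagonists and modulators, 8 were tested, 2 of them higher, 2 lower and 4 not past the threshold. FSTL1, a secreted glycoprotein of the follistatin family, was 94.89, 97.14 and 102.7 TPM in NC and 65.23, 66.20 and 64.84 TPM in KD. The groups did not overlap, with a log2 fold change of -0.58 (adjusted p by limma = 8.13e-05). KCP, which encodes a chordin-like protein, fell from 3.75 to 1.89 TPM, a call lost without NC replicate 2, NC replicate 3 or KD replicate 2. NBL1, an antagonist of the DAN family, rose from 33.7 to 42.8 TPM and CRIM1 from 25.0 to 28.6 TPM. The call of NBL1 was lost without NC replicate 1, NC replicate 3, KD replicate 2 or KD replicate 3, and that of CRIM1 when any library but KD replicate 3 was left out. CHRDL1, a chordin-like antagonist, was at 0.04, 0.09 and 0.05 TPM in NC and 1.13, 1.22 and 1.01 TPM in KD. Its mean was below the limit for testing, and in a limma fit with no limit on low values its log2 fold change was 0.999 (adjusted p = 0.000833), or 2.94 with a pseudocount of 0.1.

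All 10 intracellular negative regulators were tested, with 2 higher, 3 lower and 5 not past the threshold. STUB1, a ubiquitin ligase that can target SMADs, rose from 97.1 ± 3.93 to 122.6 ± 2.75 TPM (SD, n = 3 each, adjusted p by limma = 0.000818). CTDSP1 and CTDSP2, small phosphatases that act on SMADs, moved apart, from 34.3 to 41.1 TPM and from 37.3 to 27.0 TPM. The corepressor SKI fell from 14.2 to 11.4 TPM, and its relative SKIL, known as a target of TGF-beta signalling, from 7.69 to 5.67 TPM. The call of CTDSP1 was lost when any library but KD replicate 3 was left out, and that of SKIL when any but KD replicate 1 was.

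Among 13 other BMP target genes, 7 were tested, with 2 higher, 0 lower and 5 not past the threshold. Over all genes tested, 12.1% were higher and 24.0% lower. The 5 targets that did not pass were HEY1 (log2 fold change 0.11), MSX1 (-0.03), DLX2 (0.20), GATA3 (-0.04) and UNC5B (-0.01). ATOH8, a helix-loop-helix factor induced by BMP signalling in endothelial and liver cells, was 3.90, 4.05 and 4.91 TPM in NC and 9.48, 8.55 and 9.92 TPM in KD. The groups did not overlap, and its log2 fold change was 0.97 (adjusted p by limma = 0.000575). RUNX2, a factor of bone formation, rose from 12.5 ± 1.06 to 15.9 ± 0.845 TPM (SD, n = 3 each, adjusted p by limma = 0.014). DLX5, a homeobox gene of bone and forebrain, was 0.18, 0.20 and 0.27 TPM in NC and 1.30, 1.25 and 1.64 TPM in KD, below the limit for testing, and its log2 fold change in the limma fit with no limit was 0.98 (adjusted p = 0.00279), or 2.24 with a pseudocount of 0.1. The target MSX2 was listed at 0 in all 6 libraries, and HAMP was at most 0.02 TPM.

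Of the relatives of BMP1, TLL1 was at most 0.45 TPM and TLL2 at most 0.11 TPM. PCOLCE and PCOLCE2, which enhance the cleavage of procollagens by BMP1, were both higher, PCOLCE from 123.7 ± 2.45 to 148.0 ± 1.47 TPM and PCOLCE2 from 44.2 ± 3.29 to 62.7 ± 3.01 TPM (SD, n = 3 each), at adjusted p by limma of 0.000416 and 0.00136.

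Of the 12 helix-loop-helix genes that pair with ID proteins or act beside them, 6 were tested, with 3 higher, 1 lower and 2 not past the threshold. TCF3, the most abundant E protein, was 58.4 ± 3.61 TPM in NC and 58.5 ± 3.37 TPM in KD (SD, n = 3 each, adjusted p by limma = 0.966). TCF12, another E protein, rose from 17.79 to 22.02 TPM, a call lost without any 1 of the NC replicates or KD replicate 1. The ratio of summed ID TPM to summed E protein TPM (TCF3, TCF4 and TCF12) was 3.08, 3.31 and 3.27 in NC and 4.40, 3.97 and 4.92 in KD, so the groups did not overlap. The 2 TWIST genes, mesenchymal factors that can pair with E proteins, moved apart. TWIST1 was 14.33, 18.02 and 17.70 TPM in NC and 28.84, 34.32 and 26.13 TPM in KD, with a log2 fold change of 0.80 (adjusted p by limma = 0.00331), whereas TWIST2 fell from 5.68 to 3.47 TPM. HES1, a repressor best known as a Notch target, rose from 2.74 to 3.83 TPM, a call that was lost in each fit that left out a replicate.

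CDKN1A, the inhibitor p21 that E proteins can activate and ID proteins can hold down, was 316.3, 323.0 and 325.0 TPM in NC and 216.3, 221.0 and 213.2 TPM in KD. It fell by 0.57 on the log2 scale (SE 0.0218, adjusted p by limma = 1.51e-05). CDKN1B, at 17.6 and 16.9 TPM, did not pass, and CDKN1C was at most 0.14 TPM.

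In the related SMAD2 and SMAD3 arm of TGF-beta signalling, which also induces SMAD7, 9 of 12 genes were tested, with 3 higher, 3 lower and 3 not past the threshold. The type I receptor TGFBR1 was 19.68, 18.95 and 19.64 TPM in NC and 10.48, 10.75 and 11.49 TPM in KD, with a log2 fold change of -0.78 (adjusted p by limma = 9.52e-05). SMAD3 fell from 19.7 to 16.3 TPM and ACVR1B from 6.78 to 5.46 TPM. The ligands TGFB1 and TGFB3 rose, from 95.7 to 109.7 TPM and from 3.01 to 6.33 TPM, as did TGFBR2 from 46.0 to 52.4 TPM. The call of SMAD3 (adjusted p by limma = 0.0452) was lost when any library but NC replicate 2 was left out, and that of ACVR1B (adjusted p = 0.0426) when any 1 library was left out, and both were lost after median-of-ratios scaling or quantile normalization.

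**Figure D3:**
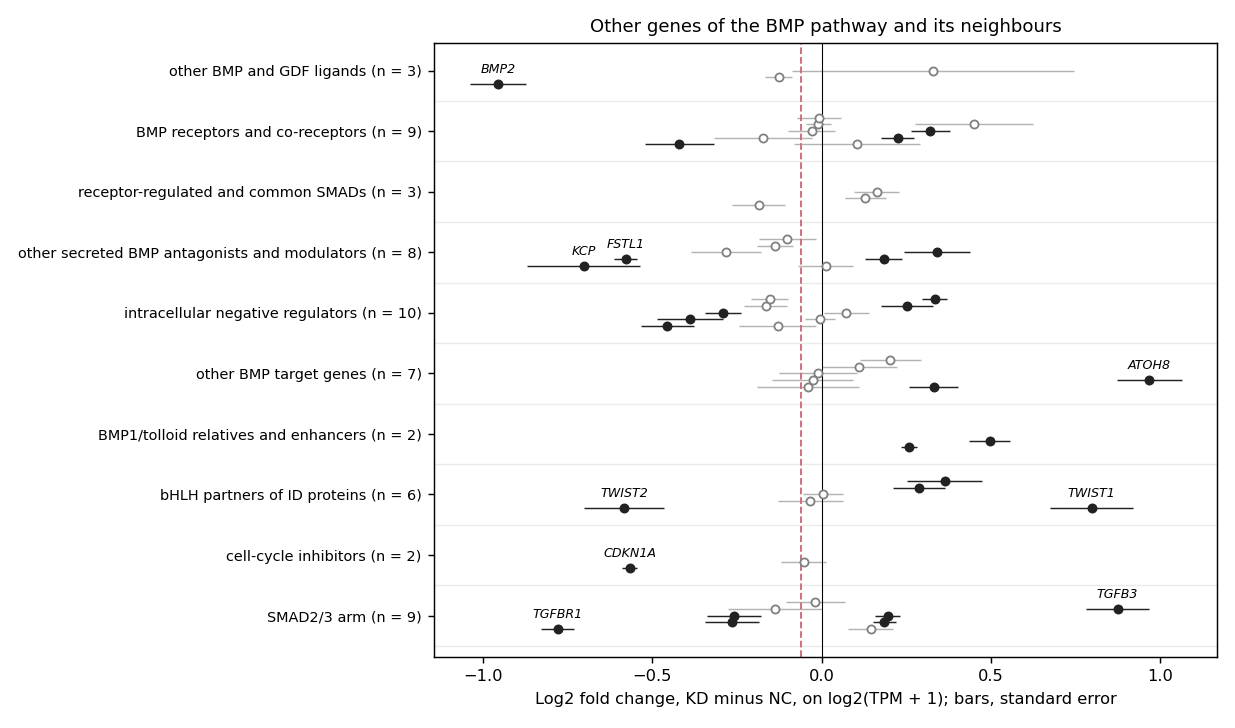
Log2 fold change (KD minus NC, horizontal axis, on log2(TPM + 1)) of the 59 tested genes of the pathway lists, 1 row of points for each list with its number of tested genes, bars for the standard error and filled points for an adjusted p under 0.05. The dashed line is the median of all tested genes at -0.06. Filled points lie on both sides of 0 in several lists, with BMP2 at -0.95 and ATOH8 at 0.97 the farthest out.

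Genes of fibroblasts and mural cells, which U87-MG cells also express, moved with the groups. Of the 8 genes on that list 6 were tested, with PDGFRB, ACTA2 and COL1A1 higher and LUM and DCN lower, and the summed level was 457.8 to 476.8 TPM in NC and 545.4 to 557.5 TPM in KD. DCN was 61.2 TPM in NC and 9.09 TPM in KD, and ACTA2 was 57.6 and 158.2 TPM. The part of any other cell type in the values of the ID genes and GREM1 was not tested, and fewer cells of a type cannot be told apart from less RNA per cell in such bulk libraries.

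By the root-mean-square difference of log2(TPM + 1), centred on the control mean, over the 6 libraries, the genes most like ID2 were SPAG4 (0.0429), CRABP2 (0.0967) and DDIT4 (0.109) among 7646 genes averaging at least 10 TPM (7647 for ID4). Those most like ID1 were PLEKHG4, RPS2 and LNPK, with differences of 0.0788 to 0.0984. For ID3 they were AKT1, GRB10 and NUTF2 (0.0235 to 0.0267), and for ID4 CAMK2D, PPP1R14B and NME4 (0.0183 to 0.0359). The pseudocount shrinks the change of ID4 more than those of genes averaging at least 10 TPM. The genes near ID4 thus match its shrunken log2 fold change of 0.52 and not its ratio of mean TPM of 1.87.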

How the data were processed

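Total RNA of U87-MG cells was sequenced in 3 NC and 3 KD libraries. The table deposited by the authors holds TPM per gene for each library, rounded to 0.01. The submitters' processing notes name fastp, RSEM and GRCh38.p13, with no versions or roles, and the labels and the study's methods name different kits. Read depth is unknown, so no interval for counting error was given and no count test was run.

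Groups came from the genotype labels. Genes averaging at least 1 TPM across the 6 libraries (13722 of 61731) were compared on log2(TPM + 1) by limma (version 3.58.1, under R 4.3.3), with a mean-variance trend, group as the only term and Benjamini-Hochberg adjustment over all genes tested. Fold changes on this scale understate changes of low genes. Single values used exact two-sided permutation tests. The fit was tested on simulated data.

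The members and lists were chosen with earlier results of these data known. All 10 genes were named, and from each list up to 4 genes past the threshold with at least 10 TPM in the higher group, by size of change, with the most abundant tested gene, the 3 nearest profiles of each ID gene, the most abundant marker of each cell type, and CHRM3. Alternatives were other pseudocounts, limits on low values, scalings, a fit without the trend, a replicate block and leaving out each library. Symbols and positions came from GENCODE 29 (GRCh38), and 61369 of 61541 Ensembl identifiers had a symbol.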

Additional observations from a re-analysis of the deposited data

How the results depend on the processing

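ID1, ID2, ID3, SMAD7 and GREM1 kept their direction and passed limma's test in all 16 alternatives, with log2 fold changes of 0.51 to 0.72, 1.30 to 1.43, 0.16 to 0.26, -0.30 to -0.21 and -0.92 to -0.79. ID4 passed in 12 of the 15 that tested it (0.49 to 0.84). With the replicate block its log2 fold change was 0.519 and did not pass, and leaving out each replicate gave 0.491 to 0.567, not past the threshold without KD replicate 2 or KD replicate 3. BMP1 passed only at 0.092 with median-of-ratios scaling and 0.098 with quantile normalization, and SMAD6 in 0 of 15 alternatives (0.18 to 0.43). With these scalings the median log2 fold change over all genes tested was 0.003 and 0.002, beside -0.06 in the main fit. The cause of the BMP1 calls was not tested. NOG passed in 0 of 14 and CHRM3 in none, and BMP4, at 0 throughout, gave no value in any fit. Between 5 and 7 of the 10 genes, of which 8 were tested in the main fit, and between 19 and 28 of the pathway genes were called over the alternatives. The calls over all genes moved too, with 4955 of 13722 in the main fit. They were 5066 of 13819 without mitochondrial transcripts and 3850 of 13712 without NC replicate 1. The summed ID level and its ratio to E proteins, alternatives chosen after seeing the data, were 1.38 to 1.51 and 1.30 to 1.45 times those of NC in KD.

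Of the other pathway genes, NBL1, HES1, SMAD3 and ACVR1B did not pass with the replicate block. With no limit on low values NBL1, CRIM1, KCP, CTDSP1, SKIL, NEO1, TCF12, HES1, SMAD3 and ACVR1B did not pass, where more genes were tested, and GDF5 passed with a limit of 5 TPM, with no trend and without mitochondrial transcripts. Signs turned for some genes that did not pass. With median-of-ratios scaling and quantile normalization BMPR1A was at 0.054 and 0.039, BMPR2 at 0.027 and 0.036, and ENG at 0.059 and 0.07, and TCF3 was at -0.008 without mitochondrial transcripts. Leaving out each replicate gave -0.042 to 0.04 for BMPR1A, -0.056 to 0.009 for BMPR2, -0.029 to 0.011 for ENG and -0.039 to 0.049 for TCF3.

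Deviations of same-numbered NC and KD libraries correlated across genes at -0.02, 0.034 and 0.033, so the numbers were not taken to pair them, and not every library correlated best with its own number. With the replicate block 4007 genes were called, against 4955 without it, and 5 of the 10 genes were. With depth unknown, differences of genes near the rounding step, such as NOG and CHRM3, were not detectable.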
